A study of Mus musculus with 4 samples.

Results

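The genes described here make and fill the dense-core granules through which neurons and endocrine cells store and release peptides. Of the 8 genes chosen by name, 7 (Cpe, Pam, Chga, Chgb, Scg2, Scg5 and Pcsk1) were read by 10 probe sets that the platform annotation assigns to a single gene symbol, out of 8251 such genes and 12422 probe sets besides controls. Pcsk2 has no such probe set in the annotation used and was not analysed here. There were 4 samples of mouse hippocampus in 1 group, each hybridised as total RNA to 1 Affymetrix mouse array, in which a probe set of short oligonucleotides reads each transcript. The labels give the tissue only, with no strain, sex, age or treatment and no statement that the samples came from separate animals, so the spread between them may be technical in part. The question that such a series can address is how far replicate samples of one tissue differ. Samples are numbered 1 to 4 as names only, and signals are quantile normalized array units, in which values under 27.7 units, the 25th percentile of all signals, were treated as equal when ranges were taken. Precision is limited by the number of arrays, and signals of different probe sets cannot be set against each other as levels. Where a gene has 2 probe sets, the one with the higher mean is called the main one.

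Peptide hormones and neuropeptides are made as long precursors that are sorted into granules at the trans-Golgi network. Inside the granule, the convertases encoded by Pcsk1 and Pcsk2 cut the precursor after pairs of basic residues, carboxypeptidase E (Cpe) trims the basic residues left at the new end, and Pam turns an exposed glycine into the terminal amide that many neuropeptides need for activity. The granins encoded by Chga, Chgb and Scg2 are acidic, calcium-binding proteins that aggregate with the cargo and are themselves cut into peptides, and Scg5 (7B2) is the chaperone that the Pcsk2 enzyme requires. In the hippocampus these genes serve interneurons that release somatostatin, neuropeptide Y or cholecystokinin and granule cells that release opioid peptides, and several granin promoters are known to respond to cyclic AMP through a cyclic AMP response element (CRE).

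The 250 bases before the annotated transcription start are shown for 5 of the 7 genes that RefSeq's promoter table (GRCm38.p6) holds (Pam, Chga, Chgb, Scg2, Scg5, Pcsk1 and Pcsk2), because they set the pair with large ranges and the same order of samples (Pam and Scg5) beside the 3 genes with a full CRE. Capitals mark the CRE, TGACGTCA, and its core, TGACG, on either strand, the core being contained in the CRE.
Pam, chr1:98095647-98095896, minus strand: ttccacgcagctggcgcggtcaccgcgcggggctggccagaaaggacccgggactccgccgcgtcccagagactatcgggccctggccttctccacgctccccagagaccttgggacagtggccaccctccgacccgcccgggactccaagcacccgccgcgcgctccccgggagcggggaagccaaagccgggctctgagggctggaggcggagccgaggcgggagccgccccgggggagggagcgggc
Scg5, chr2:113829092-113829341, minus strand: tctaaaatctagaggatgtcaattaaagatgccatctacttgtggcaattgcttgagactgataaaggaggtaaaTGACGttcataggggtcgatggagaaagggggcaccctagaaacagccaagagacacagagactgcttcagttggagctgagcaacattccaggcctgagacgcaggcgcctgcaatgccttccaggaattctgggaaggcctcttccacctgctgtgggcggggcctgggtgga
Chgb, chr2:132781392-132781641, plus strand: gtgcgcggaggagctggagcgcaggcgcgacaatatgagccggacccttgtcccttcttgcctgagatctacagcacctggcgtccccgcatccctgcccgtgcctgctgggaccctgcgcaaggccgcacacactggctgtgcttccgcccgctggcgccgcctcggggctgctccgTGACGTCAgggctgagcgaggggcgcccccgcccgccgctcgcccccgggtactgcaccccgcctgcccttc
Scg2, chr1:79440027-79440276, minus strand: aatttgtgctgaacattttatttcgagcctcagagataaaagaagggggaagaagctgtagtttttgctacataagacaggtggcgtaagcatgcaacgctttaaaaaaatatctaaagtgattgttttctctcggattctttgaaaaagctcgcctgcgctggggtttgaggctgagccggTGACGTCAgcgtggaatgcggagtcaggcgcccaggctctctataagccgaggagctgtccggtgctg
Pcsk1, chr13:75089607-75089856, plus strand: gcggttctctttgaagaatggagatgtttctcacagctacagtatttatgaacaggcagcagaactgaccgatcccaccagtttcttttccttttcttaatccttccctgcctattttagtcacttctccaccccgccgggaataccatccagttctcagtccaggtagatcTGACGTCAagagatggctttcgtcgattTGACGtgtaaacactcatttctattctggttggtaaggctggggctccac
The full CRE stood in 3 of the 7 genes, beginning 72 bases before the start in Chgb, 68 in Scg2 and 78 in Pcsk1, while 1.77% of all 27025 genes with a promoter in the table held it. The core TGACG was found in 6 of the 7, against 19.8% of all genes, and Pam was the gene without it, at either of its 2 annotated starts. In Scg5 the core began 175 bases before the start, in Chga 44. The Scg2 window was 48.0% G and C and the Scg5 window 52.0%, against 75.6% for Pam and 72.8% for Chgb. Such matches describe letters only, and no binding was measured.

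Of the 10 probe sets, 8 had a mean signal above the median of all probe sets (104 units) and were among the 6210 that were analysed. These 8 read Cpe, Pam, Chga, Chgb, Scg2 and Scg5. The single probe set of Pcsk1 and the second of Chgb were below it. Sample 4 is described before the genes, although no test was made of whether it differed from the other samples. The 3' to 5' signal ratio of control transcripts, a measure of how complete the RNA is, was highest there for both transcripts examined, at 2.03 for beta-actin, against 1.51 to 1.84 elsewhere, and at 1.15 for Gapdh, against 0.864 to 0.981. Sample 4 was the lowest sample for 30.7% of all analysed probe sets. The hippocampal markers were present, with Snap25, a synaptic protein, at 8316 ± 799 units and Calb1, of granule and pyramidal cells, at 592 ± 69.9 units (SD, n = 4), and single markers differed in sample 4 in either direction. The granule cell factor Prox1, whose probe set was not among those analysed, gave 64.1, 27.4, 108.6 and 16.7 units, below the floor in samples 2 and 4. The Camk2a probe set with the higher mean gave 357, 630, 321 and 29.4 units, lowest in sample 4. The neuronal factors Neurod1, at 126, 114, 129 and 152 units, and Neurod2, at 735.5, 638, 622 and 909 units, were highest there. Of 10 listed hippocampal neuron markers, 10 were measured and 9 analysed, with a summed signal of 15250, 15200, 13960 and 12330 units in samples 1 to 4.

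**Figure D1:**
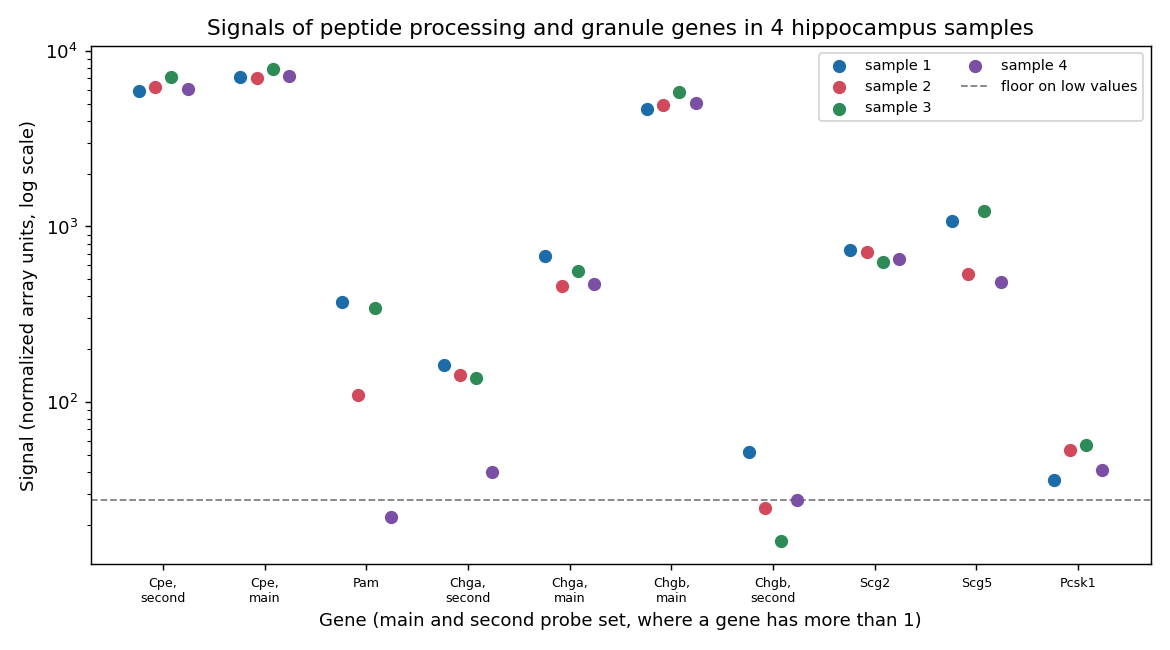
Signals of the 10 probe sets (normalized array units, log scale) in samples 1 to 4, each point 1 sample, with the floor of 27.7 units as a dashed line. The points of Cpe, the main Chgb probe set and Scg2 lie close together, whereas Pam spreads from 372 units in sample 1 to below the floor in sample 4 and Scg5 splits into samples 1 and 3 above samples 2 and 4.

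The processing enzymes differed from one another in how evenly they were measured. Pam gave 372, 110.1 and 345 units in samples 1, 2 and 3 and 22.2 units in sample 4, which is below the floor. Samples 1 and 3 lay close together, sample 2 lay 3.37-fold below sample 1, and sample 4 was the lowest. The range over the 4 samples was at least 13.4-fold, and it ranked 10 among the 6210 analysed probe sets. Its SD was 5.05 times that of probe sets of like signal, but the excess did not pass the test over all probe sets (limma, one-sided F test, Benjamini-Hochberg adjusted p = 0.405). Without sample 4 the range was 3.37-fold. Sample 4 was also lowest for the Camk2a probe set named above. It was lowest for 3 of the 8 analysed probe sets described here, beside 30.7% of all. These 3 were Pam, the second of Chga and Scg5, although after median scaling Scg5 was lowest in sample 2. The part of RNA completeness in these values was not tested.

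Cpe, by contrast, hardly differed. Its main probe set gave 7100, 6998, 7843 and 7191 units in samples 1 to 4, a mean of 7283 ± 382 (SD, n = 4). The second gave 5897, 6205, 7144 and 6078 units (6331 ± 556, SD, n = 4). Sample 3 was the highest for both probe sets, while the other 3 samples lay within 1.05-fold of each other for each, and the lowest sample differed between the probe sets. After median scaling the lowest was sample 2 for both, with the main one at 7401, 6375, 8118 and 7258 units. The ranges after quantile normalization were 1.12-fold and 1.21-fold, and only 4.46% and 15.9% of all analysed probe sets had a smaller one. The closeness depended on the scaling. The log2 range of the main probe set was 0.16 after quantile normalization, 0.28 in the deposited values and 0.35 after median scaling. The main probe set is of the kind whose oligonucleotides are shared within a sequence family, as are the main one of Chgb and the second of Chga. A highest signal in sample 3 was found for 4 of the 8 analysed probe sets (both of Cpe, the main one of Chgb, and Scg5), beside 22.5% of all. For the convertase Pcsk1 the signals were 35.7, 53.4, 56.8 and 41.2 units, close above the floor, so that little can be read from their order, which differed between scalings: the highest sample was sample 3 after quantile normalization and sample 2 in the deposited values.

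Among the granins, Chgb and Scg2 were even across the samples and the Chga probe sets differed. The main Chgb probe set gave 4651, 4955, 5828 and 5069 units, with sample 3 highest and a range of 1.25-fold (5126 ± 501 units, SD, n = 4). Scg2, whose product is cut to secretoneurin, gave 732, 712, 632 and 651 units in samples 1 to 4 (681.5 ± 47.8 units, SD, n = 4), a range of 1.16-fold. Its sample 3 was the lowest of the 4, in contrast to Cpe and Chgb, whose sample 3 was highest. Of the 3 genes with a full CRE in the windows above, Chgb and Scg2 were the ones measured evenly, and Pcsk1 had a signal near the floor. Cpe, for which the promoter table holds no window, was even as well. The SD of the main Chgb probe set was 1.005 times that of probe sets of like signal, so its spread was ordinary for its signal. The same ratio was 0.50 for Scg2, and 0.59 and 0.94 for the main and second probe sets of Cpe. A link between the CRE and evenness was not tested.

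Chga gave 680, 460, 559 and 472 units with its main probe set, so that samples 1 and 3 lay above samples 2 and 4, in a range of 1.48-fold. Its second probe set gave 163, 142, 137 and 40.1 units. There samples 1 to 3 lay within 1.19-fold of each other and sample 4 stood low, so that the range of 4.06-fold rested on that sample. The probe sets therefore disagreed on which sample was lowest, sample 2 for the main one and sample 4 for the second, on the order of samples 2 and 3, and on the size of the difference. For Chgb the second probe set gave 52.1, 25.1, 16.2 and 27.7 units in samples 1 to 4, at or below the floor in samples 2, 3 and 4.

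Scg5, the 7B2 chaperone, had the widest range among the analysed genes described here whose probe sets lay above the floor in each sample, apart from the second probe set of Chga. It gave 1080.0, 536, 1225 and 483 units in samples 1 to 4 (831 ± 376 units, SD, n = 4). Samples 1 and 3 both lay above samples 2 and 4, by 2.02-fold at the narrowest gap (sample 1 against sample 2) and by 2.53-fold at the widest. The pairs did not overlap. Its SD was 3.43 times that of probe sets of like signal, which again did not pass over all probe sets (limma F test, adjusted p = 0.651), and 92.7% of analysed probe sets had a smaller range. The range was 2.29-fold without sample 4, so it did not rest on that sample.

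**Figure D2:**
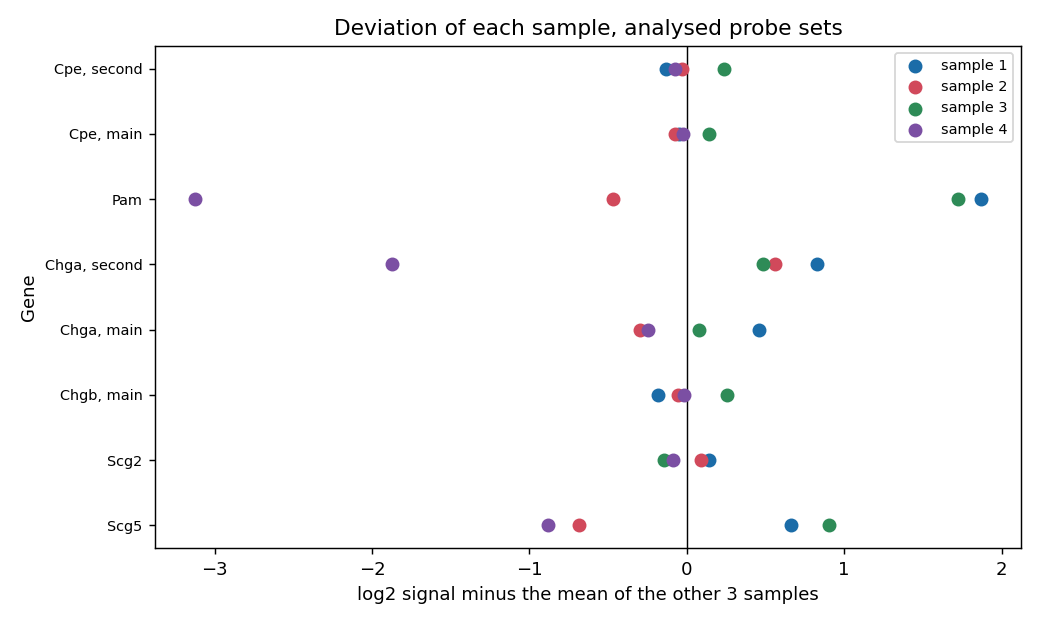
For each of the 8 analysed probe sets (rows), the log2 difference between a sample and the average of its 3 counterparts. Samples 1 and 3 lie to the right and samples 2 and 4 to the left for Pam, Scg5 and the main probe set of Chga. Cpe and Chgb are to the right in sample 3 only, and with this scaling sample 4 is left of 0 in each row.

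Pam, Scg5 and the main Chga probe set shared an order in which samples 1 and 3 both lay above samples 2 and 4, 3 of the 8 analysed probe sets. Among all analysed probe sets 18.5% had this order, and 19.5% had the opposite one, so the order itself was common. In the deposited values and after median scaling the main Cpe probe set joined them, which made 4 of 8, beside 18.4% and 19.8% of all. The fold differences within the shared order were unlike. Sample 1 exceeded sample 2 by 3.37-fold for Pam, 2.02-fold for Scg5 and 1.48-fold for Chga, and sample 3 exceeded sample 4 by at least 12.4-fold, by 2.53-fold and by 1.18-fold. Among the marker lists, the oligodendrocyte markers, 4 of 5 of them measured and analysed, summed to 4997, 6747, 4555 and 6497 units in samples 1 to 4, and the interneuron markers, 6 of 6 measured and 5 analysed, to 7243, 8697, 7157 and 7857 units. Samples 2 and 4 were the higher ones in both sums, and in that of the astrocyte markers, at 6550, 7059, 6990 and 7128 units. Most of the astrocyte sum was Aldoc, at 4931, 5226, 5042 and 5169 units. Both Gfap probe sets were also higher in samples 2 and 4. The astrocyte markers were divided, since Slc1a2 and both Aqp4 probe sets were highest in sample 3 and lowest in sample 4. Other lists had other orders. The erythroid markers, 3 of 3 analysed, summed to 14130, 11050, 4525 and 8627 units. The choroid plexus markers, 3 of 4 analysed, summed to 2956, 1583, 1104 and 2196 units. These 2 sums were highest in sample 1 and lowest in sample 3. The microglia sum was lowest in sample 4. The order of Pam and Scg5 was found in 0 of 6 analysed oligodendrocyte probe sets and in 1 of 5 interneuron ones, that of Gad1, an enzyme of GABA synthesis, which is close to the 18.5% of all probe sets. The main myelin basic protein (Mbp) probe set, Mog and Mal ran the other way, as did Npy, the analysed Pvalb probe set and the GABA transporter Slc32a1, the last at 376, 1074, 272 and 1139 units. The second probe set of Mag also did, but only narrowly. Neither order was seen in the main Mag probe set, at 528, 818, 425 and 403 units, in the second of Mbp or in Sst. In tissue samples, fewer cells of a type and less RNA per cell cannot be told apart, and the part of these markers in the Pam and Scg5 values was not tested.

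Over the 8 analysed probe sets, the median range was 1.36-fold, against 1.45-fold over all 6210, and the quartiles of all probe sets were 1.27-fold and 1.75-fold. Of the 8, 3 spanned 2-fold or more (Pam, the second Chga probe set and Scg5), where 15.2% of all analysed probe sets had one. The variance test called 0 of the 8, as it called 0% of all 6210 probe sets after adjustment. At an unadjusted p under 0.05 it counted 2, Pam and Scg5, beside 5.62% of all. With sample 4 left out, 2 of the 8 kept a range of at least 2-fold, Pam and Scg5. The share of all probe sets with such a range over samples 1 to 3 was not taken. The 15.2% above is for ranges over all 4 samples, so whether 2 of 8 is unusual cannot be read from it. Several of the small ranges belonged to probe sets with high signal, where ranges were small in general, as the plot of range against mean signal shows.

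**Figure D3:**
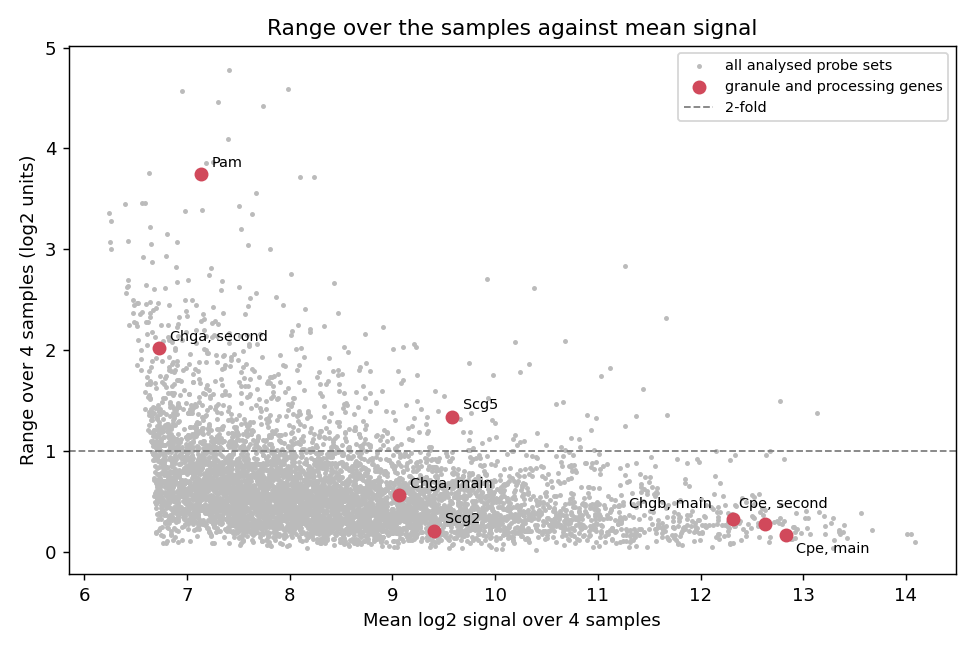
Range over the 4 samples (log2 units) against mean log2 signal for the 6210 analysed probe sets (grey) and the 8 probe sets described here (red, with gene symbols), with 2-fold as a dashed line. Pam, Scg5 and 1 Chga probe set lie above the line, and Cpe, Chgb and Scg2 lie in the body of the points.

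By sample, the 8 probe sets had a median log2 deviation from the other 3 samples of 0.30 in sample 1, -0.07 in sample 2, 0.25 in sample 3 and -0.16 in sample 4, while the median over all analysed probe sets was between 0.01 and 0.02 in each. In sample 4 each of the 8 lay below the mean of the others, where 52.2% of all probe sets lay above it. The median in sample 1 was 0.17 without sample 4, and that in sample 2 was -0.15 in the deposited values and -0.18 with 1 probe set per gene. The count in sample 4 depended on the scaling: it was 6 of 8 in the deposited values and 5 of 8 after median scaling, which moved the median of all probe sets in sample 4 to 0.11. In sample 3, 7 of 8 lay above the mean of the others, Scg2 being the exception, under each of the 3 scalings. Beside this, 51.1% of all analysed probe sets lay above it after quantile normalization. Cpe and Chga each entered these counts with 2 probe sets. Pairs of samples were compared by the median absolute log2 difference. It was smallest for samples 2 and 4, at 0.08 over the 8 probe sets, against 0.28 over all. Between these samples, 2 of the 8, Pam and the second of Chga, still differed by 2-fold or more, beside 5.68% of all. The median was largest for samples 1 and 4, at 0.35 against 0.30. Samples 1 and 3 were the only pair in which 0 of the 8 probe sets differed by 2-fold or more, with 0.33 as the largest log2 difference. They were also the closest pair over all analysed probe sets by this count, with 3.30% of them at 2-fold or more, against 3.87% to 7.44% for the other pairs.

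The analysed genes with a pattern nearest to that of Pam, by mean absolute difference of centred log2 signals over the 4 samples, were H2-K2, Ccs and Snapc3. The H2-K2 probe set, which is shared within the family of MHC class I genes, gave 469, 112, 426 and 51.1 units, a mean absolute log2 difference of 0.25. Ccs, the copper chaperone of superoxide dismutase, gave 156, 71.8, 166 and 27.9 units and differed by 0.43. Snapc3, a subunit of the factor that drives small nuclear RNA genes, gave 202.5, 120, 155 and 25.6 units and differed by 0.54. Among the genes described here, Scg5 was the nearest to Pam, at 0.84. The search ran over 6210 probe sets and 4 samples, and no test was made of it.

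Other genes of the pathway were taken from a list of 55, of which 41 were measured and 27 analysed, with 32 probe sets. At least a 2-fold range was seen in 7 of the 32, or 21.9%, beside 15.2% of all probe sets, the median range was 1.53-fold, and the variance test called 0, with 2 at an unadjusted p under 0.05. The order of samples 1 and 3 above samples 2 and 4 was found in 2 of the 32, or 6.25%. Among 6 analysed convertases and their inhibitor, 2 spanned at least 2-fold. Pcsk1n (proSAAS), which inhibits the Pcsk1 enzyme, gave 3446, 3295, 4051 and 4254 units in samples 1 to 4, with samples 3 and 4 above the others. The widest was Pcsk7, a ubiquitous convertase of the secretory route, with 118, 127, 138 and 58.1 units, low in sample 4. Of the other peptide-cleaving enzymes, 1 of 5 probe sets spanned 2-fold. Cathepsin L (Ctsl) gave 419, 431, 555 and 450 units, highest in sample 3 like Cpe. Cpd, the trans-Golgi carboxypeptidase related to Cpe, spanned 2.08-fold with one probe set (145, 125, 260 and 176 units) but 1.20-fold with the other.

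Granule membrane and cofactor genes had 2 of 6 probe sets with a 2-fold range. Ptprn (IA-2), a transmembrane protein of the granule, gave 1921, 2196, 1984 and 2406 units. Atp7a is the pump that carries copper into the secretory pathway where Pam uses it. Its analysed probe set gave 63.6, 69.1, 112 and 202 units, highest in sample 4, where Pam was lowest and below the floor. A link between Atp7a and Pam was not tested. Cyb561, the cytochrome that regenerates granule ascorbate, the other cofactor of Pam, spanned 1.23-fold with either of its 2 probe sets. The main Cyb561 probe set gave 618, 669, 758 and 754 units, with samples 3 and 4 above the others, and the second gave 351, 408.5, 362 and 333 units, lowest in sample 4.

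Other granins and lumen proteins had 0 of 3 analysed probe sets with a 2-fold range. Resp18, a protein of endocrine and neuronal granules, gave 659, 534, 509 and 351 units in samples 1 to 4, lowest in sample 4, and Scg3, which binds Chga at the granule membrane, gave 435, 415, 483 and 450 units with its probe set of higher mean. For priming and exocytosis, 0 of 3 probe sets spanned 2-fold. Cadps, which primes dense-core granules for fusion, gave 1887, 1909, 2296 and 2047 units, and Syt4, a synaptotagmin of granules, gave 135, 112, 180 and 219 units.

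Of the peptide precursors, those whose product Pam amidates had 1 of 5 analysed probe sets with a 2-fold range, and those without an amidated main product had 1 of 4. Cck, whose peptide is amidated, gave 5159, 4912, 5169 and 4488 units in samples 1 to 4, and Tac2 gave 117, 66.4, 148 and 161 units. The order of Pam was thus not seen in Tac2, where sample 4 was highest, although in Cck samples 1 and 3 lay above samples 2 and 4 within a range of 1.15-fold. Sst gave 2599, 3340, 2676 and 2621 units and Cort, its relative in cortical interneurons, gave 151, 441.5, 136 and 262 units, with sample 2 highest in both. Among endocrine markers, Pomc, the pituitary and hypothalamic precursor, gave 66.3, 31.8, 32.1 and 29.9 units, near the floor. Of the endocrine list, 5 of 5 were measured and 3 analysed, Prl, Gh and Oxt. These 3 summed to 541.5, 458, 503 and 704 units in samples 1 to 4, highest in sample 4. Pomc and Avp were not among the analysed genes and are not in this sum.

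**Figure D4:**
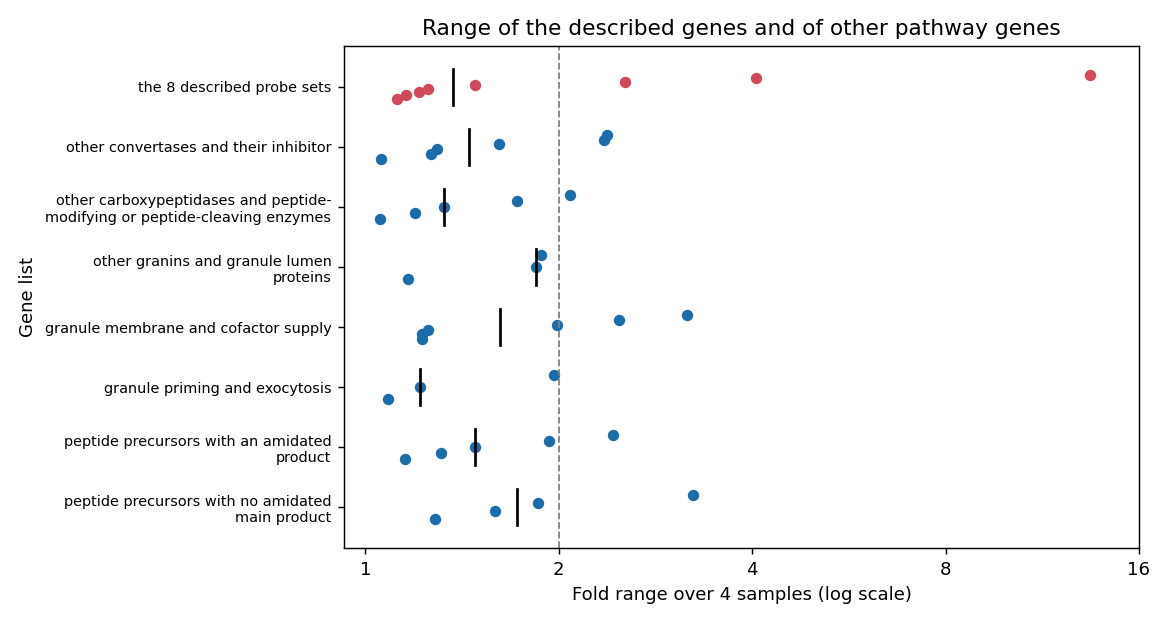
Fold range over the 4 samples (log scale) of each analysed probe set of the genes described here (red, top row) and of the other pathway lists (blue), with the median of each row as a black bar and 2-fold as a dashed line. The red row reaches 13.4-fold with Pam, and the widest blue points are Cort at 3.24-fold and Atp7a at 3.17-fold.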

How the data were processed

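Total RNA of 4 mouse hippocampus samples was measured on 1 Affymetrix mouse array each. The authors deposited linear intensities. The software that made them is not given in the sources used here. The mean of each array without its lowest and highest 2% of probe sets was 250.1 units, so the deposited intensities share a scale. After 66 control probe sets were left out, the arrays underwent quantile normalization (limma 3.58.1, R 4.3.3), and values were floored at the 25th percentile and taken to log2. Only those whose mean exceeded the median of means were analysed. Each variance was tested against the robust intensity trend of variances with a one-sided F test (3 residual degrees of freedom, 5.06 prior) adjusted by Benjamini-Hochberg over all 6210 probe sets at 0.05. Genes are named from the platform annotation, with symbols of listed genes matched through the Entrez identifier to RefSeq (GRCm38.p6). Among all probe sets, 10833 had 1 symbol, 396 several and 1193 none.

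Every probe set of the 8 genes was reported. Of each other pathway list, the gene with the highest mean and the one with the largest range among analysed probe sets were named, and for Pam the 3 nearest genes. Cyb561, Scg3 and Pomc, the second probe sets, and the single markers were named after their values were seen. Members and lists were chosen with earlier results of these data known. The samples form 1 group, so no groups were compared. Alternatives covered normalization, floor, filter, variance trend, 1 probe set per gene and each sample left out. Detection calls were not used here.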

Additional observations from a re-analysis of the deposited data

Results flagged for a closer look

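For 2 of the 10 probe sets, 1 sample lay far from the other 3. For the second Chga probe set, sample 4 was the low one, and its gap to the next sample was 0.875 of the whole log2 range, above Dixon's 95% critical value. The main Chga probe set did not show this. For the second Chgb probe set, sample 1 was the high one, with a gap of 1.0 of the range because the other samples were at or below the floor. Chance alone marks about 1 in 20 groups in this way.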

How the results depend on the processing

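Alternatives to the processing moved 8 values, each the range of a single probe set, by more than its spread between samples. The other 116 were classed as unmoved, and the counts among them were judged by equality or by ratio to the main value. The number of probe sets past the variance test was 0 under each setting tried, with a smallest adjusted p between 0.1145 and 0.9004 and an adjusted p for Pam between 0.2875 and 1.0 (limma). With samples left out in turn, the median log2 range of the analysed probe sets was between 0.26, without sample 1, and 0.43 (0.45 with all 4) and the number with a 2-fold range was 2 or 3. With 1 probe set per gene that number was 2, since the second Chga probe set dropped out. Ranges rested on single samples in 6 cases. Without sample 4, the log2 range was 1.73 for Pam (3.75 with it) and 0.25 for the second Chga probe set (2.02). It was 0.28 for the main one without sample 1 (0.56). Without sample 3 it was 0.12 for Chgb (0.33), and 0.06 and 0.04 for the second and main Cpe probe sets (0.28 and 0.16). The range of the main one was 0.28 in the deposited values and 0.35 after median scaling. The median deviation in sample 1 was 0.17 without sample 4 (0.30). Median scaling gave a median deviation of -0.24 in sample 2 (-0.07) and -0.07 in sample 4 (-0.16). The median deviation in sample 2 turned to 0.03 without sample 3, and the cause was not tested. No paired analysis was possible because the samples form 1 group. Signal near the floor limits Pcsk1, the second Chgb probe set and Pam in sample 4.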
